A study of Mus musculus with 8 samples.

Results

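Mouse Th1 cells treated with CPX, an iron chelator, were compared with Th1 cells treated with its solvent control, DMSO, across all genes. The comparison was defined by the treatment labels and held 4 of the 8 libraries of the series, 2 from DMSO-treated and 2 from CPX-treated cells; the other 4 came from cells transduced with a hairpin against the poly(C)-binding protein PCBP1 or with a scrambled hairpin, and were made from total RNA depleted of ribosomal RNA. All 4 cultures with DMSO or CPX were T cells of C57BL/6 mice, activated on plate-bound antibodies to CD3 and CD28 in the presence of 2 ng/ml IL-12 and 5 µg/ml of an antibody to IL-4, conditions that drive CD4 T cells to the Th1 fate. Their polyadenylated RNA was sequenced. The abbreviation CPX is in general use for ciclopirox, a hydroxypyridone antifungal that binds iron. The sources used here do not give its dose or the length of treatment, or say whether the replicates came from separate animals or cultures, so the p-values measure only the spread between these libraries.

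Iron is held in cells as ferritin, in heme and in iron-sulfur clusters, and it is the cofactor of ribonucleotide reductase and of a large family of oxygen-dependent dioxygenases. When cellular iron is scarce, the iron regulatory proteins IRP1 (Aco1) and IRP2 (Ireb2) bind hairpins in mRNA, which stabilises the transferrin receptor mRNA and blocks ferritin translation. Prolyl hydroxylases need iron to mark the hypoxia-inducible factors (HIF) for degradation, and the integrated stress response, through the kinases of eIF2 and the factor ATF4, is a common answer to shortage of amino acids or heme. Heat shock factor, the metal sensor MTF1 and NRF2 drive further programmes for unfolded protein, metal ions and oxidants.

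Library totals lay between 19193784 and 19662145 of the deposited units, each unit standing for about 1.96 reads, and every value below is a level in RPM, the value per 1000000 of its library total. Differences are CPX minus DMSO on the log2(RPM + 0.5) scale, given with their standard error (SE), which understates the change of genes with low values; adjusted p-values are from limma, and a gene is said to rise or fall only where its adjusted p was under 0.05. Values are listed for replicate 1 and then replicate 2. The DMSO libraries were closer to each other (Pearson's r = 0.985 across genes, 524 of 11485 genes over 2-fold apart) than the CPX libraries (r = 0.954, 1773 genes over 2-fold apart). Genes are not independent replicates. The defining markers of the labelled cells were present: Cd4, the helper coreceptor, was at 137 and 226 RPM with DMSO and 405 and 261 RPM with CPX, Cd3d, of the CD3 complex, at 179 and 251 RPM and then 386 and 355 RPM, and Tbx21, the Th1 master regulator, at 56.8 and 137 RPM and then 84.4 and 95.2 RPM.

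CPX changed a large part of the transcriptome. Of 11485 genes tested, 5139 were called (44.7%), 2294 of them higher (20.0%) and 2845 lower (24.8%) in CPX. The libraries of the groups did not overlap in 8767 genes (76.3%), 3931 of them higher (34.2%) and 4836 lower (42.1%) in CPX. A change of at least 2-fold was found in 2079 genes that rose (18.1%) and 2536 that fell (22.1%). The median difference over all genes was -0.12, and it was -0.02 after quantile normalization, a shift that scaling alone can make. The counts were lower with 1 control left out: 1279 genes rose and 1242 fell without DMSO replicate 1, and 1561 rose and 1220 fell without DMSO replicate 2. The minimum of 1 RPM in 2 libraries was met through the CPX libraries alone by 828 genes, 757 of them called, and through the DMSO libraries alone by 240 genes, 184 of them called; such genes had to differ to be tested. Among the genes named below, Cybrd1, Eno2, Vldlr, Me1, Bmf, Cdkn1c, Rsad2, Cd79a, Cd79b, Emr1, Mpo and Col1a1 are of the first kind, and Il1a, Il24, Cd70, Ccl9, Ccl20 and Cxcl16 of the second. Each count of list members below is to be read against the 20.0% and 24.8% of all genes. Some genes are in more than 1 list, such as Ddit4 and Stc2 (HIF and ATF4) and Sdha and Sdhd (TCA cycle and respiratory chain). Since bulk RNA was measured, fewer cells of a type and less of an RNA per cell cannot be told apart.

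**Figure D1:**
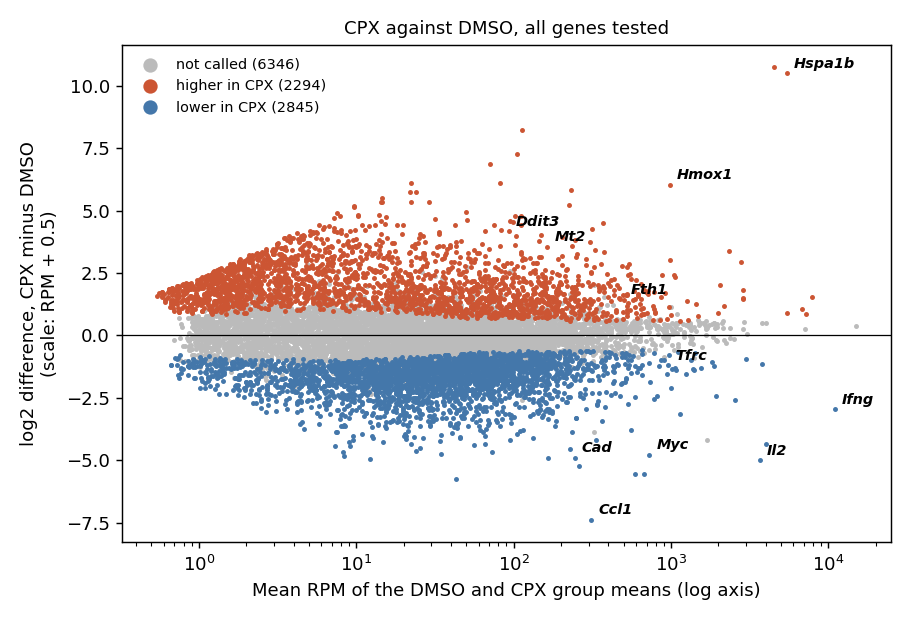
Difference between CPX and DMSO (vertical axis, log2 of RPM + 0.5) against the mean level of the 2 groups (horizontal axis, RPM, log axis), 1 point for each of 11485 genes, coloured by the limma call. Hspa1a and Hspa1b stand at the top, at 10.73 and 10.50, and Ccl1 at the bottom, at -7.37.

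The inducible HSP70 pair had the largest rise of the genes tested. Hspa1a, one of the stress-inducible HSP70 chaperones, was at 3.81 and 3.73 RPM in the DMSO libraries and reached 14412 and 3681 RPM in the CPX libraries, a difference of 10.73 (SE 0.62, adjusted p = 0.00242). Its neighbour Hspa1b went from 5.70 and 5.93 RPM to 16683 and 4997 RPM, a difference of 10.50. The copies are near-identical, so how reads were split between them is uncertain; summed, they made up 3.11% and 0.868% of the CPX libraries and were at 9.51 and 9.67 RPM in the DMSO libraries. CPX replicate 1 was the higher of the CPX libraries for both. Their promoters are shown first, because the 250 bases before the start sites of the pair (RefSeq, GRCm38.p6, read 5′ to 3′ on the gene's strand) are equal at 247 positions and each holds 1 match, in capitals, to the heat shock element (GAANNTTC or TTCNNGAA, both strands searched).
Hspa1a, chr17:34972157-34972406, - strand: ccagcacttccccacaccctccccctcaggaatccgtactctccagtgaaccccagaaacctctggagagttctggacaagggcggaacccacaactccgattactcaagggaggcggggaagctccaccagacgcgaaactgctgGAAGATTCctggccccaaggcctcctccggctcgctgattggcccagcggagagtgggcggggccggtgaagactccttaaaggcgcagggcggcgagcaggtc
Hspa1b, chr17:34959239-34959488, - strand: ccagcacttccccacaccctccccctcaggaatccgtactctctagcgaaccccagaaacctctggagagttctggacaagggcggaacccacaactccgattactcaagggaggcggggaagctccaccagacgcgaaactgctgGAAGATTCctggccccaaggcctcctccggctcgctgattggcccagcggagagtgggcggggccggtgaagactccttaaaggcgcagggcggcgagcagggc

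The search for these elements, and for the metal element below, was chosen after the values were seen. Of 13 heat shock genes that rose, 10 had a promoter in the table and 6 of these held the element, against 13.0% of 27025 promoters of the same length. A match describes the letters and is not evidence of binding. Beyond the HSP70 pair, most other genes of the heat shock list rose. Of 14 heat shock genes tested, 13 rose and 1 fell, with a median difference of 2.45. Hsph1, the HSP110 nucleotide exchange factor of HSP70, went from 675 and 611 RPM to 5203 and 4718 RPM (2.95). Dnajb1 and Dnaja1, J-domain partners of HSP70, rose by 2.88 and 2.06. The constitutive HSP70 gene Hspa8, already at 4412 and 3566 RPM with DMSO, reached 10615 and 12718 RPM (1.55). In none of these genes did the groups overlap. The 1 member that fell, named after its value was seen, was Hsf1, the heat shock factor itself (-1.32); its call was absent without either DMSO library.

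Genes of the metal and zinc response moved in both directions. The metallothioneins, small cysteine-rich proteins that bind zinc and copper, rose: Mt1 was at 21.3 and 38.9 RPM with DMSO and 201 and 335 RPM with CPX (3.15, SE 0.39, adjusted p = 0.00372), and Mt2 at 16.2 and 35.6 RPM and then 210 and 392 RPM (3.55). Slc30a1, the zinc exporter of the plasma membrane, rose by 2.24, and Slc39a4, a zinc importer, by 1.96. Of 16 genes of metallothioneins and zinc transport, 5 rose and 6 fell, with a median of -0.56; the 6 that fell were transporters, among them Slc39a7, which carries zinc out of the secretory pathway, at -1.52. These falls were the less stable side: 0 were called without DMSO replicate 1 (Slc39a7 adjusted p = 0.0694) and 1 without DMSO replicate 2 (Slc39a7 adjusted p = 0.0846). The metal response core (TGCACNC or TGCGCNC, both strands, in capitals) occurred in 3 of the 4 promoters found for the 5 genes that rose, against 21.3% of all promoters; Mt1 held 1 match and Mt2 held 3.
Mt1, chr8:94178839-94179088, + strand: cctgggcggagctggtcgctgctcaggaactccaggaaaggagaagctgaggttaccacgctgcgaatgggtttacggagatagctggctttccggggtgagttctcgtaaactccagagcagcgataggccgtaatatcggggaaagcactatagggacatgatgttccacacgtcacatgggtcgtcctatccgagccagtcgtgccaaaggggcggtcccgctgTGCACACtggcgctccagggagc
Mt2, chr8:94172368-94172617, + strand: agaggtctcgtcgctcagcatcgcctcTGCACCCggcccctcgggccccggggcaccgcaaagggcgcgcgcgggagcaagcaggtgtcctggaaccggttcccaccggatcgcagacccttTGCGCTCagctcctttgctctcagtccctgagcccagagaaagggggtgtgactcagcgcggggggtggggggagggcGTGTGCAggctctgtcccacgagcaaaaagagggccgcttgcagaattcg

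Oxidative defence genes rose in part. Hmox1, heme oxygenase, which frees iron from heme, went from 33.0 and 24.9 RPM with DMSO to 1563 and 2313 RPM with CPX (6.03, SE 0.28, adjusted p = 0.00242). Of 22 genes in the list of NRF2 targets and oxidative defence, 8 rose and 3 fell, with a median of 0.57. Me1, malic enzyme, rose from 0.203 and 0.307 RPM to 10.4 and 11.2 RPM (3.91). Txnrd1, thioredoxin reductase, and Gclc, the catalytic subunit for glutathione synthesis, rose by 2.43 and 1.70. Gpx1, the glutathione peroxidase that removes hydrogen peroxide, went the other way, from 100 and 107 RPM to 28.7 and 19.5 RPM (-2.11). Both CPX libraries lay above both DMSO libraries for each of the genes that rose, and below for Gpx1. The count of members that fell was 5 without CPX replicate 2 and 2 without either DMSO library.

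**Figure D2:**
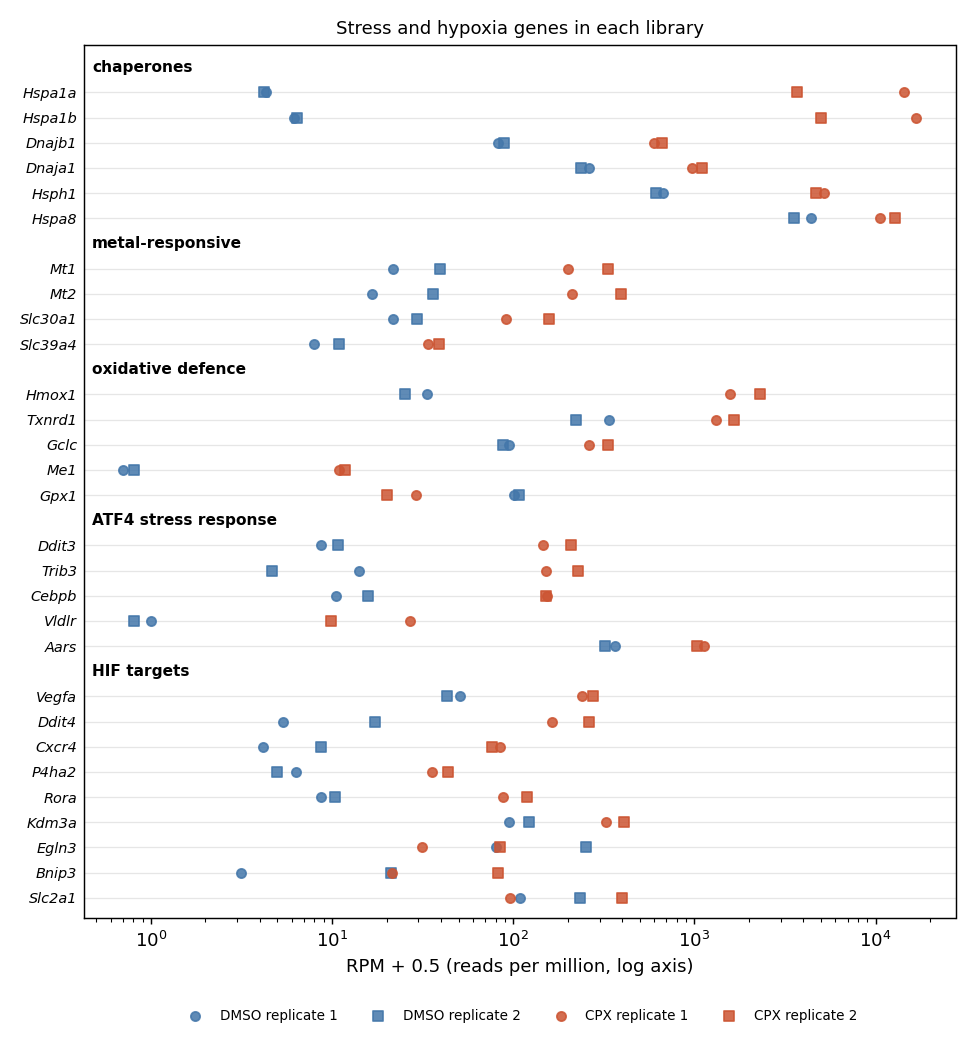
Level of stress and hypoxia genes in each library (horizontal axis, RPM + 0.5, log axis; circles replicate 1, squares replicate 2; blue DMSO, red CPX). Most stress genes separate by treatment. Egln3, Bnip3 and Slc2a1 have higher values in replicate 2 of each group, as do others such as Ddit4 and Rora.

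Genes of iron handling did not move as a block. The transferrin receptor gene Tfrc, the main iron importer of T cells, was lower with CPX, at 1302 and 1338 RPM with DMSO and 428 and 779 RPM with CPX (-1.19, SE 0.31, adjusted p = 0.0275). This call was narrow: the adjusted p was 0.0656 without DMSO replicate 1, 0.0677 without DMSO replicate 2 and 0.0501 with no filter on low values. Both ferritin chains rose. Fth1, the heavy chain with ferroxidase activity, went from 238 and 293 RPM to 567 and 907 RPM (1.44, SE 0.28, adjusted p = 0.0116), and Ftl1, the light chain, from 338 and 368 RPM to 972 and 1449 RPM (1.75); ferritin has near-identical copies elsewhere in the genome, which may share reads. Aco1, the cytosolic aconitase that becomes IRP1 when it lacks its cluster, fell from 49.4 and 58.0 RPM to 15.4 and 12.8 RPM (-1.90). Ireb2, which encodes IRP2 and was singled out after its values were seen, went from 107 and 104 RPM to 11.6 and 35.1 RPM (-2.36).

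Slc11a2, the divalent metal transporter DMT1, was at 20.0 and 30.4 RPM and then 21.5 and 22.1 RPM (-0.18, SE 0.31, adjusted p = 0.675), with overlapping groups. Slc39a14, an importer of iron not bound to transferrin, fell by 1.53 on the log2 scale (adjusted p = 0.0747 without DMSO replicate 2). Cybrd1, a ferric reductase, rose from 0.0509 and 0 RPM to 1.62 and 1.25 RPM. Pcbp1, an RNA-binding protein and iron chaperone of ferritin, and the gene targeted in the other experiment of the series, fell from 506 and 538 RPM to 238 and 199 RPM (-1.26, SE 0.20, adjusted p = 0.00611). In all, 4 of 16 iron handling genes tested rose and 7 fell, with a median of -0.74; 6 of the 22 listed were below the minimum level. The count that fell was 4 without DMSO replicate 1 and 2 without DMSO replicate 2.

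Genes that build iron-sulfur clusters and heme fell in part. Among 22 cluster assembly genes, 11 fell and 2 rose, with a median of -1.02. Ciapin1, which works in the cytosolic assembly pathway, went from 74.1 and 79.4 RPM to 6.10 and 11.5 RPM (-3.12, SE 0.36, adjusted p = 0.00325). Glrx5, a mitochondrial glutaredoxin that passes clusters on, fell from 63.8 and 69.5 RPM to 16.2 and 18.2 RPM (-1.92). Lyrm4, which stabilises the cysteine desulfurase, was at -1.99. The desulfurase Nfs1 itself was at -1.46 and the maturation factor Bola3 at -1.56; these calls were absent without DMSO replicate 1 (adjusted p = 0.0720 and 0.0880) and without DMSO replicate 2 (0.0858 and 0.0864). The list's count depended on the controls in the same way, with 3 members falling without either DMSO library, and 0 rising without either DMSO library or CPX replicate 1.

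Of 12 heme synthesis genes, 4 fell and 1 rose, with a median of -0.38. Cpox, coproporphyrinogen oxidase, fell from 55.0 and 52.5 RPM to 7.76 and 13.9 RPM (-2.31, SE 0.35, adjusted p = 0.00578). Alad and Ppox, enzymes of an earlier and a later step, were at -1.76 and -1.31; without DMSO replicate 2 their adjusted p-values were 0.121 and 0.180, and without DMSO replicate 1 that of Ppox was 0.118. The gene that rose was Slc25a38, the mitochondrial glycine importer that feeds the pathway, from 18.6 and 20.1 RPM to 70.8 and 60.2 RPM (1.73). The count of heme genes that fell was 2 without DMSO replicate 1 and 1 without DMSO replicate 2, and 3 rose without CPX replicate 1 or with median ratio scaling.

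**Figure D3:**
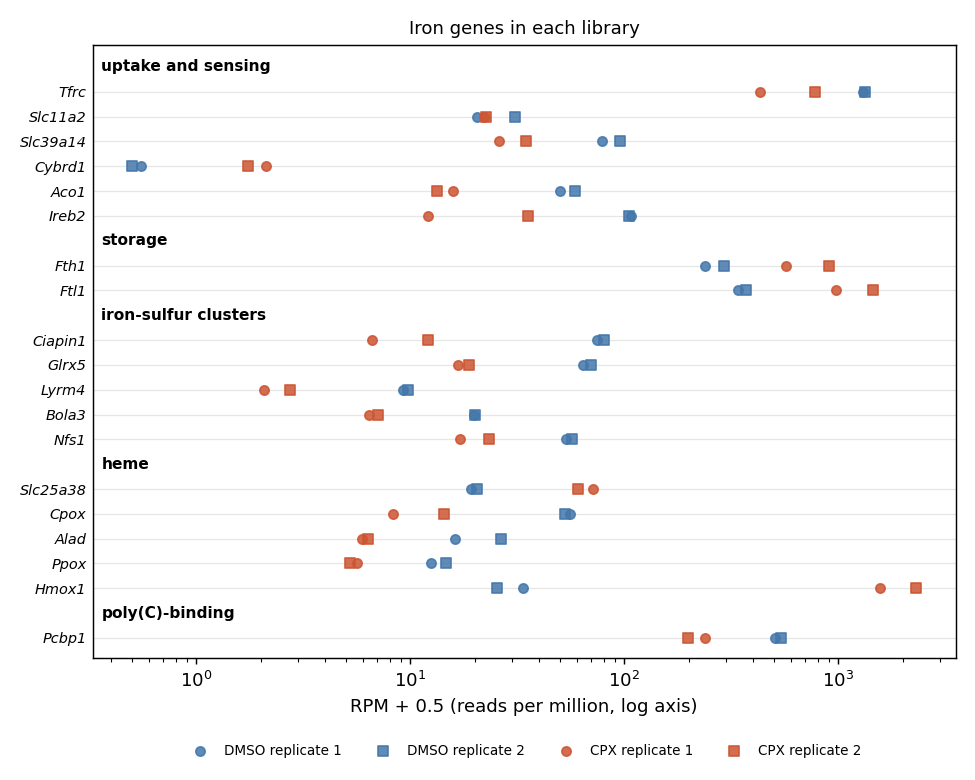
Level of genes of iron uptake, storage, iron-sulfur clusters and heme, and of Pcbp1, in each library (horizontal axis, RPM + 0.5, log axis; circles replicate 1, squares replicate 2; blue DMSO, red CPX). Fth1, Ftl1, Hmox1, Cybrd1 and Slc25a38 are higher in both CPX libraries, Slc11a2 overlaps, and the others shown are lower in both.

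Iron-dependent oxygenases, most of which also use oxoglutarate, changed in both directions. Of 32 genes in the list, 9 rose and 2 fell, with a median of 0.09; the risers include P4hb, the disulfide isomerase subunit of collagen prolyl hydroxylase, and the fallers Dohh, a hydroxylase with an iron pair that does not use oxoglutarate. The prolyl hydroxylase of collagen P4ha2 rose from 5.80 and 4.45 RPM to 35.2 and 43.2 RPM (2.82), and the histone demethylases Kdm5a and Kdm6b rose by 1.88 and 1.71. Tet2, which oxidises methylcytosine, went from 102 and 84.5 RPM to 310 and 264 RPM (1.62). Alkbh8, which modifies wobble uridines of tRNA, fell from 41.6 and 36.9 RPM to 2.97 and 4.68 RPM (-3.23). Counts were 6 rising without DMSO replicate 1, 9 falling without CPX replicate 2, 5 falling without CPX replicate 1, and 1 falling without DMSO replicate 2.

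Some HIF targets rose with CPX, and others, with a wide spread within treatment, were not called. Vegfa, the vascular growth factor, was at 50.1 and 42.8 RPM with DMSO and 240 and 277 RPM with CPX (2.46, SE 0.22, adjusted p = 0.00245). Ddit4 (REDD1), an inhibitor of mTORC1, went from 4.88 and 16.7 RPM to 164 and 261 RPM (4.43). The chemokine receptor Cxcr4 and the nuclear receptor Rora rose by 3.75 and 3.42, and the demethylase Kdm3a by 1.76. In contrast, Bnip3, a mitophagy receptor, was at 2.64 and 20.6 RPM and then 20.9 and 82.3 RPM (2.37, SE 1.04, adjusted p = 0.116). Egln3, a HIF prolyl hydroxylase, was at 79.5 and 253 RPM and then 30.8 and 84.2 RPM (-1.47, adjusted p = 0.133). The glucose transporter Slc2a1 was at 108 and 234 RPM and then 95.7 and 396 RPM (0.29, adjusted p = 0.763). In the authors' deposited table the adjusted p-values were 0.0118 for Bnip3 and 0.0242 for Egln3. The groups did not overlap for Bnip3. In these last 3 genes, as in Ddit4 and Rora, replicate 2 was higher than replicate 1 in each group.

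Over the list of 41 HIF targets tested, 14 rose and 4 fell, with a median of 0.94 against -0.12 for all genes; 9 rose without DMSO replicate 1. The HIF core (ACGTG or GCGTG, both strands, in capitals below; its first form is also part of the E-box CACGTG) was found in the 250 bases before the start site in 9 of the 13 genes that rose and had a promoter in the table, against 38.6% of all promoters. The 6 HIF targets that rose with the smallest p-values are shown; Vegfa held no match in this window, Cxcr4 and Kdm3a held 1, Rora and Ddit4 held 2, and P4ha2 held 3.
Rora, chr9:68653536-68653785, + strand: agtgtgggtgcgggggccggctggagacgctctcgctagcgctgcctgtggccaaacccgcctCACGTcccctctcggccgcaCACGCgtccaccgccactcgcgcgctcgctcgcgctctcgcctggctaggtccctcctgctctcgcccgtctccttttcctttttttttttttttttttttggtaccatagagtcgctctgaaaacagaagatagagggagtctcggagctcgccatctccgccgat
Vegfa, chr17:46032378-46032627, - strand: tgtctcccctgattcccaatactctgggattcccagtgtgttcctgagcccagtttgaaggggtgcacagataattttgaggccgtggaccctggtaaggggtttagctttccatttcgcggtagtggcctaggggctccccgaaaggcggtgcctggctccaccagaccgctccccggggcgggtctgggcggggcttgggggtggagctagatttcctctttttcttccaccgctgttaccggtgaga
Cxcr4, chr1:128592300-128592549, - strand: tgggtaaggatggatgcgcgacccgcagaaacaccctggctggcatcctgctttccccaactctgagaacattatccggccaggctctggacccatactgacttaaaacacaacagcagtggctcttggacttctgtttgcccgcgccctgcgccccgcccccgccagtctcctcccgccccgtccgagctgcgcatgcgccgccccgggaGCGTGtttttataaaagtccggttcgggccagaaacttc
P4ha2, chr11:54100674-54100923, + strand: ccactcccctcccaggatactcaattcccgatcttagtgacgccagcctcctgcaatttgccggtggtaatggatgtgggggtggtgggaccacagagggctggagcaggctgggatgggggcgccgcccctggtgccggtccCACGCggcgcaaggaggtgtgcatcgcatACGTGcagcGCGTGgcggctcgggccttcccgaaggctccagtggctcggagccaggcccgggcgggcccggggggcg
Ddit4, chr10:59951771-59952020, - strand: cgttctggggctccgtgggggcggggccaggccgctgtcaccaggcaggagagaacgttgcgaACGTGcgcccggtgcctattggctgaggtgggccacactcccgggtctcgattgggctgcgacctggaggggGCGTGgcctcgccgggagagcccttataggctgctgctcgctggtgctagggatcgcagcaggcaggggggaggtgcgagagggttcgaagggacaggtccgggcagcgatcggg
Kdm3a, chr6:71632918-71633167, - strand: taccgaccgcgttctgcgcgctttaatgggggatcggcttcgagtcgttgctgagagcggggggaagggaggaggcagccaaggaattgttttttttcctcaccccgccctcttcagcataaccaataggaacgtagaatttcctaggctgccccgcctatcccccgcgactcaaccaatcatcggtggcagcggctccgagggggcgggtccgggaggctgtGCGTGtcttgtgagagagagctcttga

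Of 22 glycolysis genes, 4 rose and 2 fell, with a median of 0.56. The glucose transporter gene Slc2a3 rose from 44.9 and 52.6 RPM to 357 and 177 RPM (2.36), and the enolase Eno2 from 0.814 and 0.767 RPM to 5.37 and 6.91 RPM (2.35). The hexokinases moved apart: Hk1 went from 140 and 211 RPM to 380 and 484 RPM (1.32, adjusted p = 0.0975 without DMSO replicate 1), while Hk2, the inducible isoform, fell from 264 and 329 RPM to 40.9 and 95.2 RPM (-2.23). The lactate transporter Slc16a1 was at -1.19 (adjusted p = 0.0656 and 0.0547 without DMSO replicates 1 and 2). The count that rose was 2 without DMSO replicate 1 and 7 without DMSO replicate 2, and 1 fell without either DMSO library.

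Genes of mitochondrial oxidation fell in part. In the TCA cycle list, 11 of 24 fell and 2 rose, with a median of -0.94. Idh3a, a subunit of the NAD-linked isocitrate dehydrogenase, went from 108 and 128 RPM to 16.7 and 27.4 RPM (-2.43, SE 0.31, adjusted p = 0.00398). Dlat, of the pyruvate dehydrogenase complex, was at -2.48, and Fh1, Suclg1 and Sdha, enzymes of later steps, at -1.67, -1.71 and -1.82. Of 47 nuclear genes of the respiratory chain and ATP synthase, 18 fell and 0 rose, with a median of -0.47. Cyc1, cytochrome c1 of complex III, went from 113 and 123 RPM to 18.4 and 13.5 RPM (-2.86); Ndufs7 and Ndufab1 of complex I were at -2.11 and -1.77. Atp5a1 of the ATP synthase was at -1.21 (adjusted p = 0.0511 without DMSO replicate 1). The falls were 7 and 5 for the TCA cycle, and 5 and 6 for the respiratory chain, without DMSO replicates 1 and 2, and 2 respiratory chain genes rose without CPX replicate 2.

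Mitochondrially encoded mRNAs were mostly not called. Of 12 mitochondrial transcripts tested, 2 rose and 1 fell (2 fell without DMSO replicate 2, without CPX replicate 1 or after quantile normalization). The risers were the ribosomal RNAs: mt-Rnr2 was at 363 and 340 RPM and then 2044 and 1511 RPM (2.32), and mt-Rnr1 at 364 and 293 RPM and then 2070 and 1477 RPM (2.42). Polyadenylated RNA was sequenced, so these values describe ribosomal RNA that came through that selection. mt-Nd5, of complex I, fell from 1461 and 1473 RPM to 622 and 531 RPM (-1.35), while mt-Co1 was at 5991 and 6906 RPM and then 8133 and 7372 RPM (0.27, adjusted p = 0.309).

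Many targets of the ATF4 stress response rose, while several folding genes of the endoplasmic reticulum (ER) fell. Ddit3 (CHOP), the stress-induced C/EBP factor, was at 8.24 and 10.2 RPM with DMSO and 146 and 207 RPM with CPX (4.17, SE 0.29, adjusted p = 0.00242). Trib3, a pseudokinase induced by CHOP and ATF4, went from 13.5 and 4.14 RPM to 151 and 229 RPM (4.53), and Cebpb from 9.97 and 15.3 RPM to 152 and 150 RPM (3.56). Vldlr, a lipoprotein receptor, rose by 4.18 from under 1 RPM, and Aars, the alanyl-tRNA synthetase, by 1.66. Of 32 ATF4 targets, 17 rose and 1 fell, with a median of 1.07; the counts that rose were 14, 13, 17 and 14 with DMSO replicate 1, DMSO replicate 2, CPX replicate 1 and CPX replicate 2 left out. Not called were 14 members, among them Atf4 itself (0.22), Asns (0.80), Psat1 (0.33), Shmt2 (-0.06) and Mthfd2 (-0.09). The 1 that fell was Pycr1 (-1.99). The ATF4 and C/EBP composite (TGATGNAA, both strands) was in 4 of 16 promoters of the genes that rose, against 3.53% of all promoters.

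Of 20 ER folding genes, 7 fell and 2 rose, with a median of -0.44. Hyou1, an HSP70-like chaperone of the ER, fell from 442 and 434 RPM to 78.9 and 97.1 RPM (-2.32, SE 0.21, adjusted p = 0.00247). The disulfide isomerase Pdia4 was at -2.31, and Creld2 and Sdf2l1, ER stress-induced folding factors, at -2.17 and -2.24. Manf was at -1.41 (adjusted p = 0.0855 without DMSO replicate 2). The falls were 4 without DMSO replicate 2, and the rises 1 and 0 without DMSO replicates 1 and 2 and 4 without CPX replicate 1.

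Lysosome and autophagy genes were higher, with 23 of 33 rising, 0 falling and a median of 1.15. Sqstm1 (p62), an autophagy receptor, went from 210 and 221 RPM to 1934 and 1594 RPM (3.02, SE 0.20, adjusted p = 0.00242). The protease genes Ctsl and Ctsd rose by 2.91 and 3.06, Ctsd from 40.1 and 91.3 RPM to 431 and 598 RPM. Map1lc3b (LC3B), which coats the autophagosome, went from 58.3 and 55.4 RPM to 194 and 228 RPM (1.88), and Atp6v0d1, a subunit of the proton pump, rose by 2.13. The count was 9 without DMSO replicate 1 and 17 without DMSO replicate 2, while 2 members fell without CPX replicate 2. Sterol and lipid synthesis genes rose in 7 of 24 and fell in 1, with a median of 0.53. Cyp51, lanosterol demethylase, went from 127 and 215 RPM to 969 and 818 RPM (2.43).

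Tm7sf2 and Sc5d, late enzymes of the sterol pathway, were at 2.10 and 1.38, with adjusted p-values of 0.0677 and 0.163 without DMSO replicate 1; for Sc5d they were 0.0509 and 0.0593 without CPX replicates 1 and 2. Fasn, fatty acid synthase, was at -1.28 (0.0639 without DMSO replicate 2). The sterol count that rose was 2 without DMSO replicate 1 and 3 without CPX replicate 1, and 0 fell without DMSO replicate 2.

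**Figure D4:**
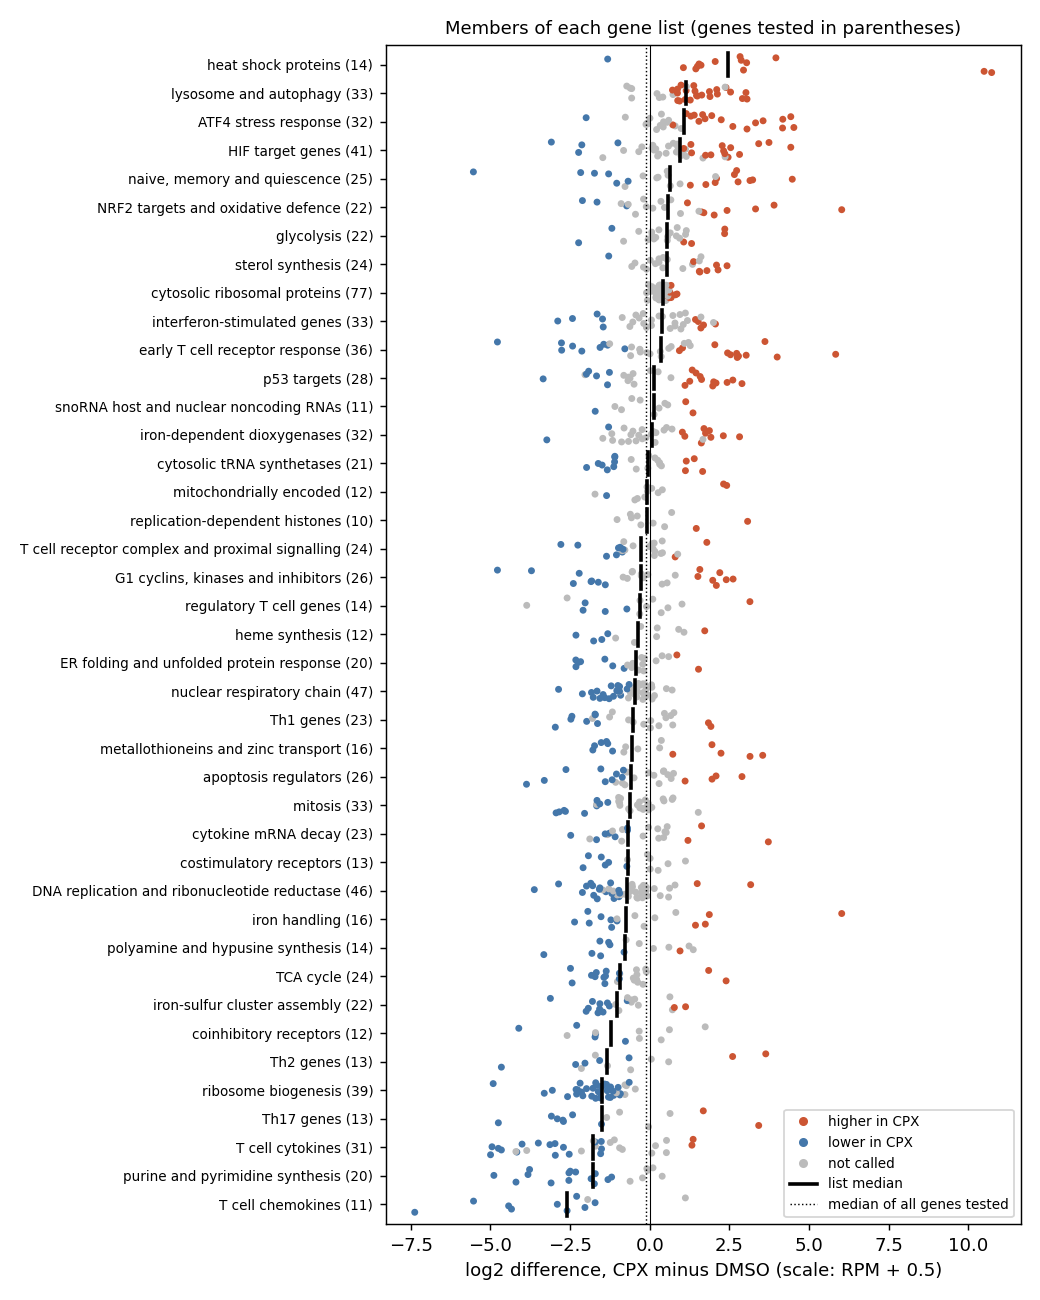
Difference between CPX and DMSO (horizontal axis, log2 of RPM + 0.5) of every tested member of each function list with at least 10 tested genes, 1 row a list, ordered by the list median (bar); red points rose, blue points fell and grey points were not called, and the dotted line is the median of all genes. Heat shock proteins lead with a median of 2.45 and T cell chemokines stand last at -2.59. The chemokine row includes Ccl9, Ccl20 and Cxcl16, which passed the minimum through the DMSO libraries alone.

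Growth arrest genes and cell death regulators changed in both directions. Cdkn1a (p21), the inhibitor of cyclin-dependent kinases, was at 112 and 196 RPM with DMSO and 521 and 659 RPM with CPX (1.98, SE 0.32, adjusted p = 0.00659). Of 28 p53 targets, 12 rose and 6 fell, with a median of 0.15. Gadd45a and Gadd45b, stress sensors of growth arrest, rose by 2.43 and 2.01. Plk2, Ei24 and Aen were lower, at -3.34, -1.91 and -1.98. The count that rose was 6 without DMSO replicate 1, and 3 fell without DMSO replicate 2. Of 26 apoptosis regulators, 9 fell and 4 rose, with a median of -0.59. Bcl2l1, which encodes the survival protein BCL-XL, fell from 362 and 522 RPM to 20.3 and 42.5 RPM (-3.86, SE 0.40, adjusted p = 0.00288). The death adaptor Fadd and the BH3 protein gene Bid were at -2.63 and -3.31.

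Bbc3 (PUMA), a BH3 protein that antagonises BCL-XL, rose from 4.93 and 6.34 RPM to 73.4 and 27.5 RPM (2.90). Bmf, another BH3 protein gene, was at 1.96 (adjusted p = 0.0657 without DMSO replicate 1 and 0.0514 after quantile normalization). In the apoptosis list, 3 fell without either DMSO library, and the rises were 1 without DMSO replicate 1, 2 without CPX replicate 2 and 6 without CPX replicate 1.

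Myc, the growth factor-induced regulator of T cell metabolism, fell from 1552 and 1263 RPM to 56.9 and 45.0 RPM (-4.78, SE 0.23, adjusted p = 0.00242). With it fell the phosphatase gene Cdc25a (-3.71) and the kinase gene Cdk4, from 279 and 306 RPM to 96.0 and 68.8 RPM (-1.84). The inhibitor Cdkn1c rose by 2.62 from under 1 RPM, and Rb1, the retinoblastoma protein gene, by 2.20. Of 26 genes for G1 cyclins, kinases and inhibitors, 7 rose and 8 fell, with a median of -0.26, and 3 rose without CPX replicate 1. Rrm2, the iron-containing subunit of ribonucleotide reductase, went from 51.5 and 68.7 RPM to 18.8 and 15.1 RPM (-1.79, SE 0.29, adjusted p = 0.00665, and 0.0597 without DMSO replicate 2).

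DNA replication genes fell in 17 of 46 and rose in 2, with a median of -0.72. Pold2, of DNA polymerase delta, went from 108 and 116 RPM to 9.12 and 8.26 RPM (-3.62), and the histone chaperone subunit Chaf1a, the clamp loader Rfc1 and the helicase subunit Mcm2 were at -2.86, -2.11 and -1.64. The falls were 10 and 6 without DMSO replicates 1 and 2, and 1 rose without DMSO replicate 1. Of 33 mitosis genes, 9 fell and 0 rose, with a median of -0.61. Cdk1, the mitotic kinase, was at 69.3 and 114 RPM and then 13.2 and 10.9 RPM (-2.84), and Aurkb, Ccnb1 and Plk1 at -2.68, -2.94 and -2.64. Ccna2, cyclin A2, was at -2.04 (adjusted p = 0.0583 without DMSO replicate 2). Each of the 33 mitosis genes was higher in DMSO replicate 2 than in DMSO replicate 1, and 4 fell without DMSO replicate 2; 1 rose without DMSO replicate 2 or CPX replicate 2.

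Of 55 replication-dependent histone genes listed, 10 were above the minimum level; as background, these mRNAs mostly lack a poly(A) tail. Of the 10, 2 rose and 0 fell, while 3 fell after quantile normalization. Hist1h2bc went from 1.02 and 0.921 RPM to 14.6 and 9.62 RPM (3.08). Hist1h1c was at 1.46, with adjusted p-values of 0.172, 0.0612 and 0.0912 without DMSO replicate 1, DMSO replicate 2 and CPX replicate 1, 0.0991 after quantile normalization and 0.0522 with no filter.

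Genes that make ribosomes and nucleotides were lower in nearly the whole of their lists. Of 39 ribosome biogenesis genes, 34 fell and 0 rose, and all 39 had a difference below 0, with a median of -1.51. Polr1b, a core subunit of RNA polymerase I, went from 336 and 300 RPM to 14.8 and 6.81 RPM (-4.91, SE 0.39, adjusted p = 0.00242). Dkc1, which takes part in pseudouridylation of ribosomal RNA, fell from 489 and 414 RPM to 56.6 and 35.8 RPM (-3.31). The processing factors Rrp1b, Bop1 and Nop56 were at -3.05, -2.58 and -2.29. The falls were 18, 28, 37 and 32 with DMSO replicate 1, DMSO replicate 2, CPX replicate 1 and CPX replicate 2 left out. Of 20 purine and pyrimidine genes, 14 fell and 0 rose (1 without CPX replicate 2), with a median of -1.79, and 12 to 15 fell with any 1 library left out.

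Cad, which starts pyrimidine synthesis, fell from 469 and 477 RPM to 12.7 and 18.9 RPM (-4.89, SE 0.26, adjusted p = 0.00242). Dhodh, the later mitochondrial step of that pathway, went from 39.1 and 41.2 RPM to 2.14 and 2.65 RPM (-3.82). In purine synthesis, Gart fell from 307 and 322 RPM to 35.9 and 36.9 RPM (-3.09), and Adsl was at -2.54; Mthfd1, a folate enzyme that feeds the pathway, was at -3.77. Polyamine and hypusine genes fell in 7 of 14 and rose in 1, with a median of -0.77. Odc1, the entry enzyme, went from 1464 and 1337 RPM to 442 and 525 RPM (-1.54), and the synthases Srm and Sms were at -3.32 and -1.81. Eif5a, the translation factor that carries hypusine, was at -1.56, and Dohh, the iron-dependent hydroxylase that completes hypusine, at -1.29 (adjusted p = 0.0836 and 0.0793 without DMSO replicates 1 and 2). In this list 4 fell without either DMSO library, 0 rose without DMSO replicate 1 and 4 rose without CPX replicate 1.

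Cytosolic ribosomal proteins took no part in these falls. Of 77 tested, 8 rose and 0 fell, and 74 lay above 0, with a median of 0.41 (0.49 with median ratio scaling and 0.28 after quantile normalization). The count was 4 with median ratio scaling, 3 after quantile normalization, 0 without the variance trend, 0 without either DMSO library, 3 without CPX replicate 1 and 18 without CPX replicate 2. The members with the smallest p-values, Fau, Rps27, Rpl39, Rps19 and Rpl9, had differences of 0.86, 0.81, 0.67, 0.62 and 0.64, and without DMSO replicate 1 their adjusted p-values were 0.119, 0.122, 0.220, 0.308 and 0.183. None of these 5 calls was kept without DMSO replicate 2 or without the variance trend, and Rps19 and Rpl9 were also not called without CPX replicate 1 (0.0582 and 0.103). Reads of ribosomal protein genes may be shared with processed pseudogenes. Of 21 cytosolic tRNA synthetases, 8 fell and 4 rose, with a median of -0.06 (0.02 with median ratio scaling); Farsa, Kars and Hars were at -1.98, -1.61 and -1.49, and Cars was at 1.12 (0.0546 and 0.0828 without DMSO replicates 1 and 2). The synthetase falls were 3 without either DMSO library, and 2 rose without DMSO replicate 2.

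The translation factor genes Eef1a1 and Eef2, named for their high level, were at 14521 and 11509 RPM and then 19002 and 14521 RPM (0.36, adjusted p = 0.270), and at 5105 and 5130 RPM and then 9746 and 8811 RPM (0.86, adjusted p = 0.0161). The Eef2 call was absent with any 1 library left out (adjusted p = 0.0989 without DMSO replicate 1, 0.0896 without DMSO replicate 2, 0.137 without CPX replicate 1 and 0.0733 without CPX replicate 2) and after quantile normalization (0.261).

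Cytokine and chemokine genes were lower. Il2, the T cell growth factor, was at 10023 and 4183 RPM with DMSO and 182 and 226 RPM with CPX (-4.99, SE 0.43, adjusted p = 0.00242). Ifng, the defining Th1 cytokine, fell from 14026 and 23804 RPM to 1106 and 4983 RPM (-2.96, SE 0.71, adjusted p = 0.0213, and 0.0618 without CPX replicate 1). Csf2 (GM-CSF) was at 1186 and 104 RPM and then 38.5 and 9.36 RPM (-4.17, SE 1.22, adjusted p = 0.0386). The DMSO libraries were far apart, and the Csf2 call was absent without CPX replicate 1 (0.0597), without CPX replicate 2 (0.162), with no filter (0.0734) and after quantile normalization (0.0561). Of 31 T cell cytokine genes, 16 fell and 2 rose, with a median of -1.77; the falls were 14, 16, 15 and 17 and the rises 1, 0, 1 and 0 with DMSO replicate 1, DMSO replicate 2, CPX replicate 1 and CPX replicate 2 left out.

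Il17f fell from 77.7 and 57.2 RPM to 2.14 and 1.87 RPM (-4.75). Il24 was at 40.7 and 7.93 RPM and then at 0.104 RPM in both CPX libraries (-4.95). Among ligands of the TNF family, Tnfsf9 (4-1BB ligand) went from 114 and 134 RPM to 7.55 and 6.96 RPM (-4.0), and Tnfsf8 (CD30 ligand) and Tnfsf10 (TRAIL) were at -3.13 and -2.97. Cd70, the CD27 ligand, was at 23.8 and 9.52 RPM and then 0.0521 and 0.0520 RPM (-4.82). Il1a, an alarmin of the IL-1 family, was at 150 and 20.6 RPM and then 0.521 and 0.572 RPM (-5.75). Il24, Cd70 and Il1a passed the minimum through the DMSO libraries alone, so they had to be lower with CPX to be tested. The CPX libraries were close to each other in most of these genes, while DMSO replicate 1 was well above DMSO replicate 2 for Il24 and Il1a.

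Of 11 chemokine genes, 9 fell and 0 rose (1 rose with median ratio scaling), with a median of -2.59. The lowest was Ccl1, a ligand of CCR8, from 1123 and 121 RPM to 2.97 and 0.936 RPM (-7.37, SE 1.06, adjusted p = 0.00495). Xcl1, lymphotactin, went from 1989 and 341 RPM to 21.4 and 14.1 RPM (-5.53). Ccl3, an inflammatory chemokine, fell from 4944 and 3775 RPM to 577 and 891 RPM (-2.59). Ccl9, Ccl20 and Cxcl16 were at -4.42, -2.90 and -2.29. They passed the minimum through the DMSO libraries alone, so they had to be lower with CPX to be tested. The count of falls and the median above include them. With either DMSO library left out they were not tested. Counts were 5 and 6 without DMSO replicates 1 and 2.

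**Figure D5:**
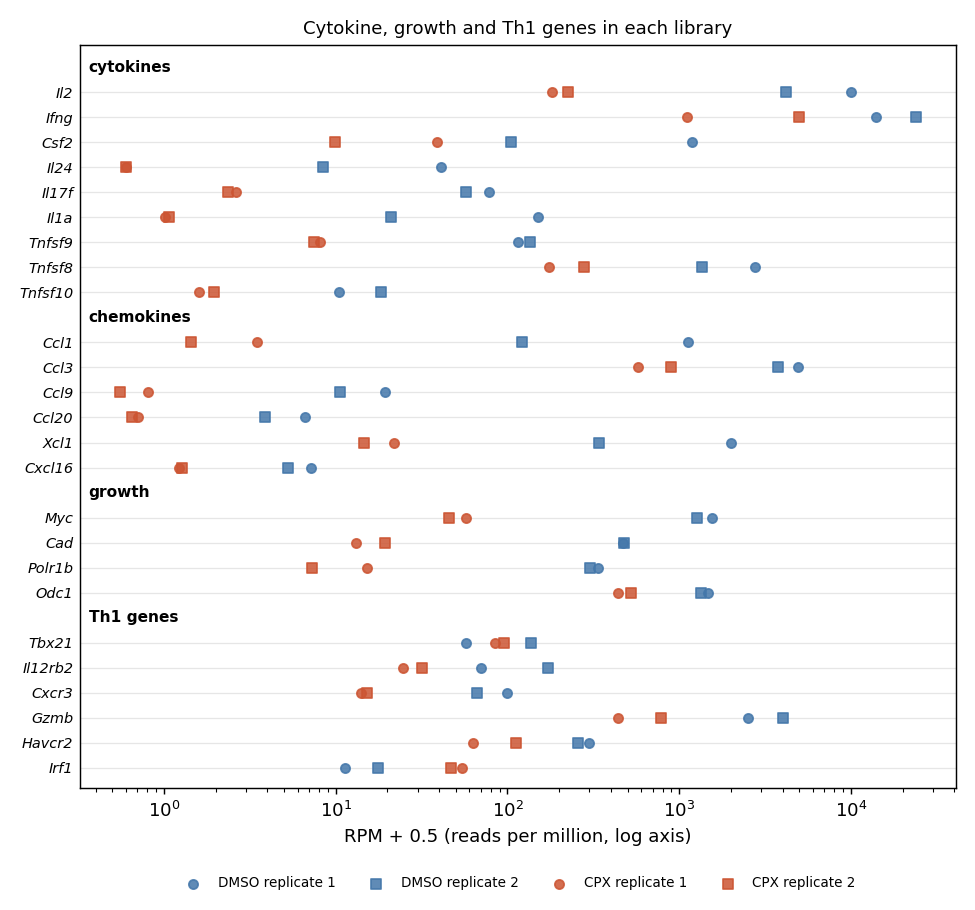
Level of cytokine, chemokine, growth and Th1 genes in each library (horizontal axis, RPM + 0.5, log axis; circles replicate 1, squares replicate 2; blue DMSO, red CPX). Tbx21 overlaps between the groups, Irf1 is higher in both CPX libraries and the others shown are lower in both, with the DMSO libraries far apart for Csf2, Ccl1 and Il1a.

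The Th1 programme did not fall as a unit. Tbx21 (T-bet) differed by 0.02 (SE 0.43, adjusted p = 0.968). Il12rb2, the inducible chain of the IL-12 receptor, was at 69.4 and 172 RPM and then 24.1 and 31.1 RPM (-1.98, adjusted p = 0.0192, and 0.0886 without DMSO replicate 2 and 0.0732 without CPX replicate 1). Cxcr3, the Th1 homing receptor, and Gzmb, granzyme B, fell by 2.47 and 2.44 on the log2 scale. The inhibitory receptor Havcr2 (TIM-3) was at -1.71, and Fasl at -1.70 (0.126 without DMSO replicate 1, 0.0538 after quantile normalization). Irf1, the interferon-induced factor, was at 1.85 (0.0584 without DMSO replicate 1). Of 23 Th1 genes, 7 fell and 2 rose, with a median of -0.51, and 0 rose without DMSO replicate 1.

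Lists for the other helper fates held genes that fell and genes that rose. Of 13 Th2 genes, 5 fell and 2 rose, with a median of -1.32, and 3 fell with median ratio scaling. Il13 went from 174 and 104 RPM to 11.9 and 1.82 RPM (-4.65), the homing receptor Ccr4 was at -2.32 and the factor Ikzf1 at -1.57, while Nfil3 and Epas1 (HIF-2α) rose by 2.60 and 3.64. Of 13 Th17 genes, 7 fell and 2 rose, with a median of -1.51; the AP-1 partner Batf and its cofactor Irf4 were at -3.08 and -2.42, Irf4 from 1272 and 1460 RPM to 207 and 313 RPM. In the list for regulatory T cells, 4 of 14 fell and 1 rose, with a median of -0.31. The share that fell, 28.6%, was near the 24.8% of all genes, and Tnfrsf4 and Tnfrsf9 are also in the costimulatory list. Itgae (CD103) rose by 3.15 and Tnfrsf4 (OX40) was at -2.09. Nrp1, Tnfrsf18 and Tnfrsf9 were at -2.02, -1.39 and -0.71, and each of these calls was absent in several settings: without DMSO replicate 1 for Nrp1 (0.101) and Tnfrsf9 (0.253), and without DMSO replicate 2 for Tnfrsf18 (0.260) and Tnfrsf9 (0.194). Without CPX replicates 1 and 2 the adjusted p-values were 0.0524 and 0.0743 for Nrp1, and 0.148 and 0.0761 for Tnfrsf18. After quantile normalization they were 0.0509 for Nrp1 and 0.0657 for Tnfrsf18, with no filter 0.0750 for Tnfrsf18, without the variance trend 0.0588 for Tnfrsf18 and 0.0715 for Tnfrsf9, and with median ratio scaling 0.0760 for Tnfrsf9. The regulatory T cell falls were 2 without DMSO replicate 2 or CPX replicate 1, and 1 Th17 gene rose without DMSO replicate 2.

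Activation genes changed in both directions. In the list of early responses to the T cell receptor, 12 of 36 rose and 9 fell, with a median of 0.35. The immediate early factor Fosb went from 7.43 and 7.62 RPM to 448 and 470 RPM (5.84, SE 0.22, adjusted p = 0.00242), Nr4a2 from 18.5 and 14.9 RPM to 338 and 223 RPM (4.0), and Crem, a cAMP-responsive regulator, from 14.4 and 15.3 RPM to 182 and 194 RPM (3.62). The activation antigen Cd69 fell from 985 and 886 RPM to 137 and 138 RPM (-2.76). Of 25 genes of naive, memory and quiescent cells, 10 rose and 6 fell, with a median of 0.65. Klf4, Klf6, Foxo3 and Bcl6, transcription factors linked to quiescence or memory, rose by 4.48, 2.10, 2.78 and 2.66. Slfn2, a Schlafen gene needed for T cell quiescence, went the other way, from 1367 and 1275 RPM to 17.3 and 45.3 RPM (-5.53). In that list 4 and 2 fell without DMSO replicates 1 and 2.

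Inhibitory and costimulatory receptors fell in part. These receptor lists also hold the ligand genes Cd200 and Cd40lg. Of 12 coinhibitory receptors, 5 fell and 0 rose, with a median of -1.23: Cd200 went from 233 and 272 RPM to 12.3 and 16.2 RPM (-4.11), 4632428N05Rik (VISTA) was at -2.29 and Btla at -1.70. Pdcd1 (PD-1) was at 158 and 149 RPM and then 80.4 and 101 RPM (-0.76, adjusted p = 0.0379, and 0.290 and 0.227 without DMSO replicates 1 and 2, 0.0505 with median ratio scaling, 0.0551 after quantile normalization and 0.0642 without the variance trend). In this list 1 rose without DMSO replicate 1 or CPX replicate 2. Of 13 costimulatory receptors, 6 fell and 0 rose, with a median of -0.69 (1 rose without CPX replicate 1 or CPX replicate 2); Tnfrsf14, Cd40lg and Cd27 were at -1.92, -1.52 and -1.29. Their calls were absent without DMSO replicate 2 (Tnfrsf14 0.0683, Cd27 0.137) or DMSO replicate 1 (Cd40lg 0.0658), and the count was 4 and 2 without DMSO replicates 1 and 2. Of 24 genes of the T cell receptor complex and proximal signalling, 8 fell and 2 rose, with a median of -0.26. The scavenger receptors Cd6 and Cd5 were at -2.79 and -2.25, and Bcl10, an adaptor to NF-kB, rose by 1.80.

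Cd247 and Ptprc, the zeta chain and CD45, were at -1.04 and -0.98, with adjusted p-values of 0.0792 and 0.0621 without DMSO replicate 1 and 0.118 and 0.101 without DMSO replicate 2. The receptor complex count that fell was 3 and 2 without DMSO replicates 1 and 2, and 1 rose without DMSO replicate 1, DMSO replicate 2 or CPX replicate 1. Of 12 T helper identity genes, 6 fell and 1 rose, with a median of -0.72; Cd3e was at 132 and 184 RPM and then 71.4 and 51.7 RPM (-1.35, and 0.113 without DMSO replicate 2), while Cd4 was at 0.88 (adjusted p = 0.0826) and Cd3d at 0.80 (adjusted p = 0.0389). In this list 4 and 2 fell without DMSO replicates 1 and 2, and 0 rose with any 1 library left out.

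Of 33 interferon-stimulated genes, 5 rose and 5 fell, with a median of 0.40. Rsad2 (viperin) and Isg15 were at 2.07 and 1.61, and Gbp5, Ifi47 and Trim21 at -2.88, -2.42 and -1.65; the calls of Isg15 (0.0610 and 0.0504 without DMSO replicates 1 and 2) and Trim21 (0.0930 without DMSO replicate 2) were narrow. The rises were 1 without DMSO replicate 1, and the falls 3 and 2 without DMSO replicates 1 and 2. Of 23 genes of cytokine mRNA decay, 7 fell and 3 rose, with a median of -0.69. Zfp36 (tristetraprolin), which binds AU-rich elements, rose from 37.3 and 45.0 RPM to 421 and 713 RPM (3.73, SE 0.31, adjusted p = 0.00242). Hnrnpd (AUF1), another AU-rich element protein, fell from 392 and 375 RPM to 104 and 45.0 RPM (-2.48), the RNase Zc3h12a (Regnase-1) was at -1.67, and Tial1 at -1.40 (0.0926 without DMSO replicate 1). In this list 4 fell without either DMSO library, and the rises were 1, 2 and 5 without DMSO replicate 1, CPX replicate 2 and CPX replicate 1.

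Of 11 snoRNA host and nuclear noncoding RNAs, 2 rose and 1 fell, with a median of 0.14. Snhg1 went from 104 and 102 RPM to 226 and 311 RPM (1.36). Neat1 was at 1.13 (adjusted p = 0.225 and 0.0625 without DMSO replicates 1 and 2, 0.0569 without CPX replicate 2). Snhg3 was at -1.71 (0.0730 and 0.113 without DMSO replicates 1 and 2, 0.0551 after quantile normalization, 0.0558 with no filter). Counts that rose were 1 without either DMSO library or CPX replicate 2, and 2 and 3 fell without CPX replicates 1 and 2.

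Several of the largest rises were in genes close to absent from the DMSO libraries and outside the lists. P2rx7, the receptor for extracellular ATP, went from 0.102 and 0.307 RPM to 305 and 144 RPM (8.24). Like P2rx7, Efnb2, Hey1, Vash2, G530011O06Rik and Gm20481 passed the minimum through the CPX libraries alone, so their differences are given as a description with no test. Elmod3, which acts on small GTPases, went from 0.661 and 1.02 RPM to 250 and 167 RPM (7.27), and Efnb2, the membrane ligand ephrin-B2, from 0.661 and 0.767 RPM to 153 and 130 RPM (6.86). Hey1, a Notch target repressor, was at 0 and 0.102 RPM and then 70.1 and 19.6 RPM (6.10), and Vash2 at 0.203 and 0.205 RPM and then 66.6 and 20.9 RPM (5.75). Efr3b rose by 6.08, and the unnamed transcripts G530011O06Rik and Gm20481 differed by 5.76 and 5.49. Serpinb9, the serpin that restrains granzyme B, stood with Ccl1 and Il2 among the largest falls, from 501 and 508 RPM to 14.6 and 11.7 RPM (-5.22).

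Markers of several other cell types differed between the treatments. Sums cover only listed markers that reached 10 units in some library of the series. These were 4 of 12 macrophage, 9 of 12 dendritic cell, 1 of 12 granulocyte and 4 of 10 B cell markers. They were also 2 of 12 erythroid, 6 of 10 fibroblast, 7 of 12 NK and 4 of 4 CD8 T cell markers. The summed level of 12 macrophage and monocyte markers was 2.80 and 4.86 RPM with DMSO and 72.8 and 54.5 RPM with CPX, and the 4 markers above the minimum all rose, among them Itgam from 1.58 and 1.69 RPM to 49.5 and 25.5 RPM, and Emr1 and Cd68 by 3.26 and 2.69. The counts were 2 without CPX replicate 1 or CPX replicate 2. Lyz1 was listed with a mean of 0 in the authors' deposited table. The 12 dendritic cell markers summed to 12.6 and 18.5 RPM and then 73.6 and 52.8 RPM, with 3 of 5 tested rising (Itgax 3.35, H2-Ab1 2.19, Zbtb46 1.58), 2 without DMSO replicate 1, DMSO replicate 2 or CPX replicate 1; Zbtb46 had adjusted p-values of 0.108, 0.0890 and 0.0536 in these settings, 0.0503 with no filter and 0.0683 after quantile normalization. Clec9a, Siglech and Cd209a had a mean of 0 in the authors' deposited table. The part of such cells in the results above was not tested.

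Of the 12 granulocyte markers only Mpo entered the sum, at 0.0509 and 0 RPM and then 7.19 and 5.35 RPM (3.68). Mpo was under the minimum without CPX replicate 1 or CPX replicate 2. S100a8, Elane, Csf3r, Retnlg, Camp and Mcpt4 were at a mean of 0 in the authors' deposited table. The 10 B cell markers summed to 1.22 and 0.665 RPM and then 4.27 and 3.22 RPM, with Cd79a and Cd79b rising by 0.96 and 1.35, neither of them with DMSO replicate 1 (adjusted p = 0.147 and 0.0932) or DMSO replicate 2 (0.293 and 0.0625) left out or after quantile normalization (0.791 and 0.229), and both under the minimum with either CPX library left out; Ms4a1 was at a mean of 0 in that table. Of the 12 erythroid markers, the 2 that entered the sum stayed under 1 RPM together (0.407 and 0.460, then 0.729 and 0.676), and 0 were tested. Hba-a2, Hbb-b1 and Alas2 had a mean of 0 in the authors' deposited table. The 10 fibroblast markers summed to 1044 and 1639 RPM and then 2587 and 2148 RPM, mostly Vim, which T cells express; Vim was at 1.25 (adjusted p = 0.0934 without DMSO replicate 1, 0.0579 without CPX replicate 1), Col1a1 rose by 2.35, and Col1a2, Col3a1 and Dcn had a mean of 0 in that table. Of 3 tested, 2 rose, 1 without DMSO replicate 1 or CPX replicate 2 and 0 without CPX replicate 1.

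The 12 NK and cytotoxic markers, mostly Gzmb, summed to 2760 and 4523 RPM and then 554 and 1055 RPM, with 1 of 6 called lower (2 without DMSO replicate 1 or CPX replicate 2), and Ncr1 had a mean of 0 in the authors' deposited table. The 4 CD8 T cell markers summed to 193 and 84.9 RPM and then 26.6 and 20.7 RPM; 1 rose and 2 fell. This sum was carried by Crtam, at 183 and 74.2 RPM and then 7.97 and 10.9 RPM (-3.57), while the defining Cd8a was at 1.93 and 2.00 RPM and then 1.2 and 0.780 RPM (-0.74, adjusted p = 0.0885). Eomes was at 1.92 (adjusted p = 0.0890 without DMSO replicate 1) and Cd8b1 at -0.96 (0.272, 0.275, 0.0610 and 0.0506 with each library left out in turn, and 0.353 in 1 fit of all 8 libraries).

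For 20 genes chosen from the biology of iron, stress and Th1 cells, the effect of CPX was set against that of the PCBP1 knockdown in 1 model over all 8 libraries, in which 51.3% of 10430 genes differed. Of the 20, 11 differed. Myc fell with CPX and was higher with the knockdown, at 364 and 449 RPM with the scrambled hairpin and 781 and 917 RPM with the PCBP1 hairpin, a difference of effects of -5.84 (SE 0.26, adjusted p = 5.80e-05). Hmox1 rose more with CPX, by 4.37 on the log2 scale (SE 0.32). The effects on Tfrc (-0.70, adjusted p = 0.139), Pcbp1 (0.32, adjusted p = 0.229), Ifng (-1.89, adjusted p = 0.115), Csf2 (-2.09, adjusted p = 0.280), Tbx21 (-0.40, adjusted p = 0.546), Slc11a2 (-0.66, adjusted p = 0.123), Egln3 (-0.89, adjusted p = 0.417), Bnip3 (2.85, adjusted p = 0.101) and Slc2a1 (0.05, adjusted p = 0.967) did not pass the test, which does not show that they were alike. The knockdown experiment used total RNA depleted of ribosomal RNA and the CPX experiment polyadenylated RNA; each effect was taken against its own control, but experiment and RNA selection cannot be told apart in this contrast. Without CPX replicate 2, Tfrc (adjusted p = 0.000722), Pcbp1 (0.0419) and Ifng (0.00287) passed; without DMSO replicate 1, Slc11a2 (0.0325) and Tbx21 (0.0251) did; without DMSO replicate 2, Csf2 (0.0196) and Bnip3 (0.0151) did, the last also without CPX replicate 1 (0.0365).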

How the data were processed

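RNA-seq of Th1 cells gave 1 library per sample, from polyadenylated RNA for DMSO and CPX and from total RNA depleted of ribosomal RNA for the knockdown and its control, per the labels. Reads were trimmed with cutadapt, aligned with STAR to mm9 and counted with HTSeq, and DESeq was run, per the submitters' processing notes; the sources used here give no versions, annotation or strand. The deposited CPX and DMSO values, called RPM by the authors, are treated as a score: counts times 1 common factor, rounded, from which whole reads could not be recovered, so no count test was run. The deposited knockdown values are raw counts. The authors' deposited tables of their own tests hold mean signal, log2 fold changes, a test score and p-values.

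The deposited table has a fault. Its line named Ins1 holds 1 value (23487630) in every column, and names that sort after it carry the values of the gene before them in the alphabet. Of 14805 lines that reached 10 units somewhere, 7440 matched the mean signal of their own name in the authors' deposited tables. A further 7348 matched that of the preceding gene and 17 a unique gene. A match had to lie within a relative 2e-09 of the knockdown experiment's mean and also within 1.2 of the CPX experiment's mean. The constant line was dropped, 25 names turned into dates stayed out, and values were divided by the library total.

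Genes at 1 RPM or more in 2 libraries were tested with limma 3.58.1 (R 4.3.3, trended variance) on log2(RPM + 0.5), DMSO and CPX only, with Benjamini-Hochberg adjustment over all genes tested; the script was checked on simulated data. A lone library left in a group is assumed to vary like the others. The members and the 50 gene lists were chosen with earlier results of these data known. Genes were named by rule: 20 chosen ones, the 12 largest called rises and 12 falls at 5 RPM or more without overlap, up to 5 members of smallest p per list, the 5 most abundant, and 6 HIF promoters. Promoters came from RefSeq (GRCm38.p6, the most upstream start per gene); Slc2a3, Nars, Hsp90aa1, Hspa8, Hsp90ab1 and Slc39a4 had no entry. Alternatives tried are given with their effects in the closing part. A few genes that the rule names are not reported here.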

Additional observations from a re-analysis of the deposited data

Results flagged for a closer look

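For 11 of 20 chosen genes the effect of CPX differed from that of the PCBP1 knockdown by a test of the difference itself (limma over 8 libraries from differently selected RNA, 5346 of 10430 genes called), where the difference is the CPX effect minus the knockdown effect on the log2 scale. Myc (-5.84) and Hmox1 (4.37) are described above. The ferritin genes Fth1 (1.99) and Ftl1 (1.86) were higher with CPX and not with the knockdown, whose own effects were -0.55 and -0.11. The stress genes Ddit4 (3.87), Ddit3 (4.27) and Mt1 (3.07) and the kinase inhibitor gene Cdkn1a (2.19) were raised by CPX, against knockdown effects of 0.56, -0.10, 0.08 and -0.21. Vegfa differed by 2.27. Il2 was lower in both experiments, and lower by a further -3.70 with CPX. Rrm2 differed by -2.30, falling by 1.79 with CPX against a knockdown effect of 0.52. Each of the 11 calls was kept in every alternative run.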

How the results depend on the processing

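Of 232 named genes 225 were called. Of these, 172 kept the call in every alternative run that tested them, and 0 changed direction. A gene under the minimum in a run, such as P2rx7 or Il1a with some libraries left out, was not counted as lost there. The call was lost in at least 1 run by 53 genes, by 20 of them in a run that kept all libraries. Losses were most frequent with a DMSO library left out. A minimum of 5 RPM tested 9222 genes and called 1529 higher against 2604 lower. With 1 library left out, 1279 to 1890 genes rose (the lowest without DMSO replicate 1, the highest without CPX replicate 1) and 1220 to 3745 fell (the lowest without DMSO replicate 2, the highest without CPX replicate 2), and of 943 genes in the lists 109 to 183 rose and 151 to 310 fell. The share of calls that were higher was 44.6% with all libraries, 56.1% without DMSO replicate 2 and 32.1% without CPX replicate 2; the cause was not tested. Counts over all genes under the other pseudocounts, scalings and variance settings stayed within 1.5 times; counts of single lists that did not, such as the ribosomal proteins, are given with them.

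The replicate numbers are not known to pair the libraries: with 2 pairs, the correlation of the deviations of same-numbered libraries was 0.10. With the replicate number as a block 2585 genes rose and 3092 fell, and in the lists 226 rose and 313 fell; 28 of 77 ribosomal protein genes rose (8 without the block), 21 of 41 HIF targets rose and 6 fell (14 and 4), 8 of 22 glycolysis genes rose (4), 10 of 33 interferon-stimulated genes rose (5), and 24 of 31 cytokine genes fell (16). The block also called the differences of effects of Egln3 (0.0153), Bnip3 (0.00308), Ifng (0.0198) and Csf2 (0.0192), and not the fall of Cd8b1 (adjusted p = 0.0623).

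With 2 libraries in each group, a lone library is assumed to vary like the others. Each unit of the deposited values stands for about 1.96 reads, and 1 unit is a level of about 0.05 RPM, so only levels near that value cannot be separated from 0 at this depth. Dose and length of treatment, and whether the libraries are separate cultures, are unknown here.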

Other observations

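A pair of protein quality control lists was added after the values were seen. Among 34 proteasome subunits, 9 fell and 0 rose, with a median of -0.34; 0 fell without either DMSO library, 5 with median ratio scaling and 16 without CPX replicate 2. Of the 8 subunits of the CCT chaperonin, which folds actin and tubulin, 1 fell and 0 rose, with a median of 0.28. Of the 14 genes of the heat shock list described above, 13 rose.

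Levels of HIF targets were ordered by replicate number as well as by treatment. Replicate 2 was above replicate 1 in both groups for 30 of 41 HIF targets (73.2%) and 15 of 22 glycolysis genes (68.2%), against 3940 of 11485 genes tested (34.3%). The HIF and glycolysis lists share many members, among them Slc2a1, Slc2a3, Hk1, Hk2, Pgk1 and Eno1, so these counts are not separate observations. The median difference of replicate 2 from replicate 1 among HIF targets was 0.62 in DMSO and 0.71 in CPX on the log2 scale. Mitosis genes did not share this order: their medians were 0.92 in DMSO and -0.55 in CPX. For T cell cytokines the medians were -0.44 and -0.11.

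In the authors' deposited table, 6524 of 15791 genes with an adjusted p-value were called, 3497 higher and 3027 lower, and 4926 genes were called both there and here, 4926 of them in the same direction.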
